A study of Solanum lycopersicum with 9 samples.

Results

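The ANR1-like MADS-box gene of tomato was represented by 1 probe set, Les.5024.1.S1_at, of 10038 tomato probe sets on the Affymetrix Tomato GeneChip, and was taken by that identifier. The probe set was designed on a tomato cDNA that has no gene symbol or locus in the annotation used here, so the gene is called ANR1-like after the name the study gave it, and its position and sequence are not given. The study excised roots from a buried ring of field soil (the patch) 53 h after water or ammonium had been injected into it. All plants were wild-type tomato of cultivar 76R grown in field soil, and their roots carried arbuscular mycorrhizal fungi. The 9 arrays were 3 water controls, 3 of the low NH4+ treatment and 3 of the high NH4+ treatment, which received 0, 6.5 and 65 μg of NH4+-N for each g of soil, and each was hybridized with RNA of 1 biological replicate. An array of whole patch roots cannot tell less transcript per cell from fewer cells of a type.

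MADS-box genes encode transcription factors that bind DNA as dimers or larger complexes and are best known for setting the identity of floral organs and the course of fruit ripening. ANR1 of Arabidopsis is a root-expressed member of the family. It is known for promoting the growth of lateral roots where they enter a nitrate-rich patch of soil, and it is placed downstream of the nitrate transporter and sensor NRT1.1. That role was shown in Arabidopsis, not in tomato.

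The transcript was highest in the water controls, lower in low NH4+ and lowest in high NH4+ roots. Signals, which are linear MAS5 values in arbitrary units, were 939, 701 and 335 on water replicates 1, 2 and 3. They were 183, 403 and 251 on low NH4+ replicates 1, 2 and 3. In high NH4+ they were 194, 189 and 173. All 3 high NH4+ arrays lay below all 3 water arrays, whereas the low NH4+ arrays overlapped both other groups. The probe set was above a signal of 100 on all 9 arrays, by 9.39 times on water replicate 1 and by 1.73 times on high NH4+ replicate 3. The study left out probe sets that were under about that signal on all 9 arrays. Reading single arrays against it is a choice made here.

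**Figure D1:**
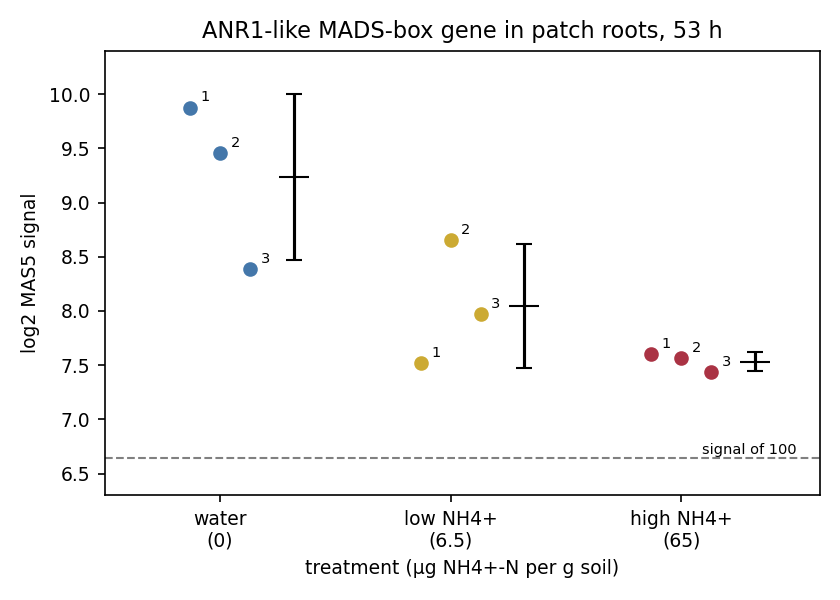
Log2 MAS5 signal of the ANR1-like gene on each of the 9 arrays (numbered points, by replicate) against the NH4+-N added per g soil, with the mean ± SD (n = 3) as bars and the signal of 100 as a dashed line. The water arrays lie between 8.39 and 9.88, the high NH4+ arrays between 7.43 and 7.60, and water replicate 3 lies below low NH4+ replicate 2.

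On the log2 scale, the mean level was 9.24 ± 0.77 (SD, n = 3) in water, 8.05 ± 0.57 in low NH4+ and 7.53 ± 0.09 in high NH4+. The geometric mean signals were 604, 265 and 185. The replicates differed from each other more in water and low NH4+ than in high NH4+: the highest signal of a group was 2.80 times the lowest in water, 2.201 times in low NH4+ and 1.12 times in high NH4+. The SD in water was as large as or larger than that of 93.5% of the 6670 probe sets tested, and the SD in high NH4+ as large as or larger than that of 15.7%. The median SD of the tested probe sets was 0.25 in water, 0.31 in low NH4+ and 0.19 in high NH4+.

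The question the arrays address is how root transcripts respond to a pulse of ammonium in a soil patch. The study reported that nitrate as well as ammonium was raised in the high NH4+ patch soil by the time of sampling. In the low NH4+ patch it found both to be similar to the water controls. High NH4+ against water is thus not a contrast of ammonium alone. What part each form of N has in the differences between these roots was not tested. In high NH4+ against water, the ANR1-like transcript fell 3.26-fold, a log2 difference of -1.71 (SE 0.39, 95% interval -2.59 to -0.82, adjusted p = 0.0671 by limma with Benjamini-Hochberg adjustment over 6670 probe sets). It was lower in 9 of 9 pairs of arrays. At the false discovery rate of 10% that the study used, 253 of the 6670 probe sets (3.79%) were called lower in this comparison, and the ANR1-like gene held position 58 of 6670 when all were ordered from the most negative difference. The study had itself listed this gene as changed on these same arrays, so its p is not independent evidence. Over the arrays of this pair alone, an exact two-sided permutation test gave p = 0.1, the smallest value that 3 arrays against 3 can give. The call was lost when water replicate 1 was left out (log2 difference -1.39, adjusted p = 0.205 by limma) or any 1 of the high NH4+ arrays, and with each array centred on its median (-1.59, adjusted p = 0.1002). Calls over all tested probe sets were also fewer in these fits. They went from 435 of 6670 to 11 of 6638 without water replicate 1. Without high NH4+ replicates 1, 2 and 3 they were 6 of 6600, 6 of 6661 and 285 of 6666, and with centring 358 of 6670.

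In low NH4+ against water, the log2 difference was -1.19 (SE 0.39, 95% interval -2.08 to -0.30, adjusted p = 0.147 by limma), a 2.28-fold lower level that did not pass the 10% threshold. In this comparison 199 probe sets (2.98%) were called in either direction and 163 (2.44%) were called lower. The transcript was lower in 8 of 9 pairs of arrays, and the exact two-sided permutation test gave p = 0.2. This comparison and that of high NH4+ share the 3 water arrays, so the 2 differences are not independent of each other.

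Between the NH4+ doses, the log2 difference of high minus low NH4+ was -0.51 (SE 0.39, 95% interval -1.40 to 0.38, adjusted p = 0.474 by limma), with 4 probe sets (0.0600%) called lower and 56 (0.840%) called higher among all those tested. The level was lower in 7 of 9 pairs of arrays (exact two-sided permutation p = 0.3). In the order water, low NH4+, high NH4+, the ranges of neighbours overlapped and neither neighbouring difference passed the adjusted threshold, although the 95% interval of low NH4+ minus water lay below 0. Over all 3 treatments at once, the one-way F was 7.45, with an exact permutation p of 0.0464 over 1680 assignments of the arrays. That p rose above 0.05 (0.0750 to 0.0857) when any 1 array other than water replicate 3 or low NH4+ replicate 2 was left out.

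The arrays differed in overall level, with array medians from 7.28 to 7.59 in water, 6.87 to 7.15 in low NH4+ and 7.23 to 7.40 in high NH4+ on the log2 scale. The median difference of all tested probe sets was -0.08 in high NH4+ and -0.16 in low NH4+ against water, and became 0.04 and 0.20 once arrays were centred on their medians. Relative to that median, the ANR1-like transcript lay at -1.63 in high NH4+ and -1.03 in low NH4+, which centring leaves as they are by construction. The order of the 3 treatments also held after centring, with means of 9.08 ± 0.90 in water, 8.25 ± 0.72 in low NH4+ and 7.49 ± 0.06 in high NH4+ (SD, n = 3).

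Water replicate 3 and low NH4+ replicate 2 stood apart from the other 7 arrays on the first principal component, which held 37.8% of the variance, at -40.3 and 52.7. They also had the highest and the lowest array median. These are the arrays on which the water and low NH4+ values of the ANR1-like gene crossed, at signals of 335 and 403. Without both arrays, an alternative chosen after seeing the data, the log2 difference from water was -2.13 (SE 0.21, adjusted p = 0.0183 by limma) in high NH4+ and -1.92 (SE 0.23, adjusted p = 0.109) in low NH4+. High minus low NH4+ was then -0.21 (adjusted p = 0.704). The 2 arrays held the lowest water and the highest low NH4+ value of the gene. Leaving them out thus narrows the spread and widens the differences from water by construction. Whether the way these arrays stand apart has a part in the values of the gene was not tested.

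**Figure D2:**
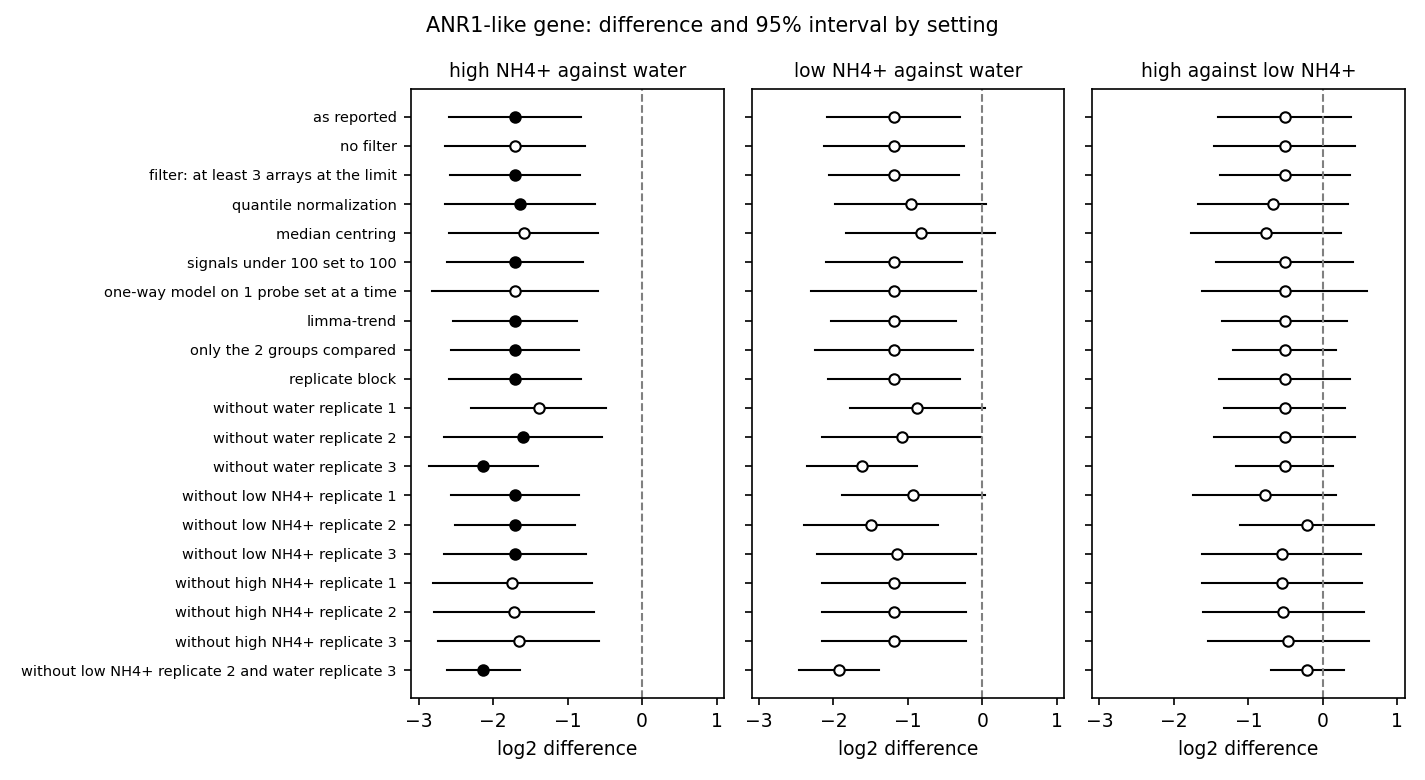
Log2 difference of the ANR1-like gene (points) with its 95% interval (lines) in the 3 comparisons under each setting listed on the left, filled where limma's adjusted p (or that of the one-way model) was at or under 0.1 and open where it was not. High NH4+ lay below water in every setting shown, by -2.13 to -1.39, and no setting called low NH4+ against water or high against low NH4+. The filter, floor, model and block settings cannot move the points of this gene, only their intervals. The same holds for leaving out an array outside the comparison.

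Of the other MADS-box genes found by symbol, only 1 could be tested, and its level did not pass the test in either dose. Only 909 probe sets had a symbol, and the ANR1-like gene itself had none. Further MADS-box probe sets without a symbol would thus have been missed. The list held 11 further probe sets, of which 1 reached the signal of 100; by limma 0 were called, beside 6.52% of all tested in high NH4+ and 2.98% in low NH4+, and 0 had an unadjusted p under 0.05. With 1 member tested, this count says little about the family. This was TDR6, also known as TM6, a relative of the floral organ identity gene APETALA3. Its log2 values were 7.48, 7.59 and 7.63 in water, 7.83, 7.59 and 7.30 in low NH4+, and 7.69, 7.46 and 7.76 in high NH4+. The ranges of the 3 groups overlapped, with differences from water of 0.07 in high NH4+ (adjusted p = 0.842 by limma) and 0.01 in low NH4+ (adjusted p = 0.982).

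The other 10 MADS-box probe sets stayed under the signal of 100 on every array, so no change could be read for them. Their highest signals ran from 2.99 for MADS1 to 52.4 for TDR4, a relative of the Arabidopsis fruit gene FRUITFULL. Among them were RIN, which is required for fruit ripening, AG1, TAGL1 and AGL11, which belong to the AGAMOUS group that specifies stamens, carpels and ovules, TDR8, and 2 probe sets of TPI. TM5, a SEPALLATA-type gene, had a highest signal of 6.25, in water, and was listed at a log2 value of 0 on all 6 arrays of low and high NH4+. Other tomato relatives of ANR1 were not analysed here.

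**Figure D3:**
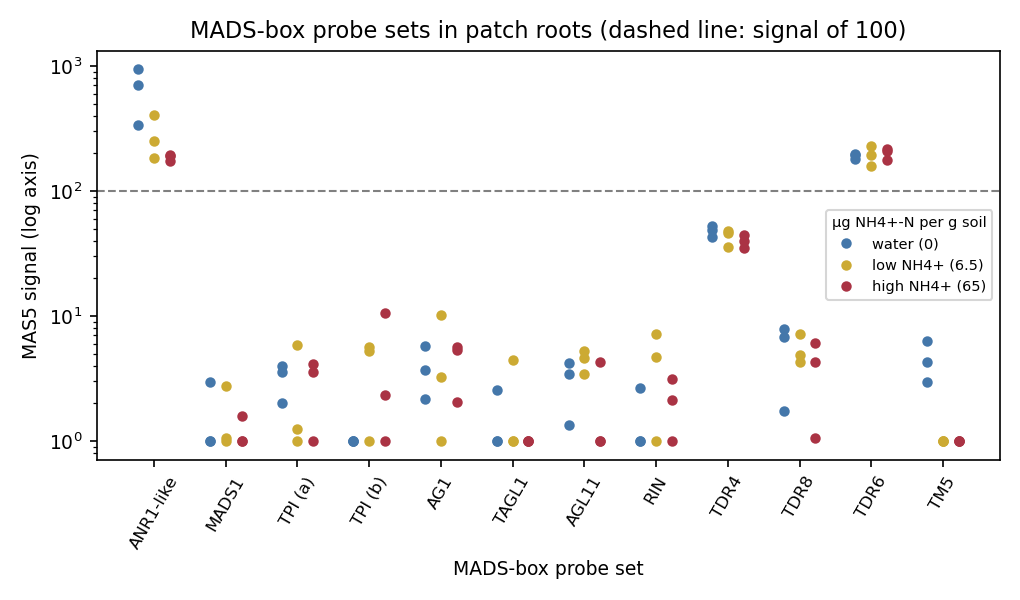
MAS5 signal (log axis) of the ANR1-like gene and the 11 other MADS-box probe sets on each array, in blue for water, yellow for low NH4+ and red for high NH4+, with the signal of 100 as a dashed line. Each probe set is to be read against the line and across treatments, not against another probe set. The ANR1-like gene and TDR6 lie above 100 on all 9 arrays, and of this pair only the ANR1-like gene steps down from water to high NH4+.

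Glutamine synthetase genes and 1 ammonium transporter rose in the same roots. The list of N uptake and assimilation genes matched 5 probe sets of 4 genes, all tested. In high NH4+ 4 of them rose and 0 fell (182 of all tested, 2.73%, were called higher), and in low NH4+ 2 rose and 0 fell (0.540% of all tested called higher). The 4 that rose were 3 genes, since gts1 was on the array with 2 probe sets, and both calls in low NH4+ were of gts1. One of these 2 probe sets passed the filter only through 2 high NH4+ arrays, so its calls are not support. With the stricter filter of 3 arrays, 3 probe sets rose in high NH4+ and 1 in low NH4+. Over all 6127 tested with that filter, 485 and 162 were called in either direction. The count in high NH4+ was 2 without high NH4+ replicate 1 or 2, and that in low NH4+ was 1 when water replicate 1, water replicate 3, the second low NH4+ array or the third high NH4+ array was left out. Over all tested probe sets, those fits called 6 in high NH4+ (435 with all arrays) and 4 to 6 in low NH4+ (199 with all arrays). The median log2 difference of the 5 probe sets, the one mostly under 100 included, was 2.03 in high NH4+ and 0.47 in low NH4+. Over all tested probe sets it was -0.08 and -0.16. Glutamine synthetase, which joins ammonium to glutamate, gave the largest change of the list in both doses. Log2 values of gts1, the cytosolic form, on the probe set with the higher signal were 7.61, 7.81 and 7.70 in water, 10.13, 10.55 and 10.41 in low NH4+, and 11.13, 12.06 and 12.11 in high NH4+. No array of one group reached the range of another, unlike for the ANR1-like gene. The differences of gts1 from water were 4.06 in high NH4+ (adjusted p = 0.000357 by limma) and 2.66 in low NH4+ (adjusted p = 0.0125).

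The second gts1 probe set, which is among those called, reached the signal of 100 only on high NH4+ replicates 2 and 3 and lay under it at log2 values of 3.48 to 4.05 in water and 5.17 to 5.78 in low NH4+, so no fold is given for it. GS2, the plastid glutamine synthetase, rose by 1.69 (adjusted p = 0.0448 by limma) and the ammonium transporter AMT1-2, also called AMT2, by 2.03 (adjusted p = 0.0467) in high NH4+. In low NH4+ these 2 probe sets differed from water by 0.47 and 0.31, which did not pass the threshold. Glutamate dehydrogenase gdh1, the member that did not pass in either dose, differed by -0.15 and -0.50. Ammonium transporter 1 (AMT1), which carries ammonium into roots and was not matched by this list but was in the group of the study described next, went the other way, with a log2 difference of -0.85 in high NH4+ (adjusted p = 0.0773 by limma) and -0.13 in low NH4+ (adjusted p = 0.724). It was named after its values were seen.

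The study grouped the ANR1-like gene with 20 other N-related probe sets. That group was chosen on these same arrays, so its counts are not independent evidence of a response. In high NH4+ 9 of the 20 rose and 5 fell, beside 2.73% and 3.79% of all tested probe sets, and in low NH4+ 4 rose and 3 fell, beside 0.540% and 2.44%. The 14 calls in high NH4+ became 1 without high NH4+ replicate 1 or 2, 3 without water replicate 1, and 7 without water replicate 3. The 7 calls in low NH4+ became 1 in 7 of the 9 fits with 1 array left out, and stayed at 7 in the fits that dropped water replicate 2 or the third low NH4+ array. Over all tested probe sets, the fits named for high NH4+ called 6, 6, 11 and 112, against 435 with all arrays. Those 7 fits for low NH4+ called 4 to 39, against 199, and the fits where the count stayed at 7 called 638 and 1126. None of the 20 fell further than the ANR1-like gene in high NH4+, where the next was alpha-aminoadipic semialdehyde synthase, an enzyme of lysine breakdown, at -1.18. In low NH4+ 2 of them had a lower log2 difference than the gene, a cystathionine beta-synthase domain protein at -1.85 and the same alpha-aminoadipic semialdehyde synthase at -1.23. These 2 were named after their values were seen.

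Auxin carries the signals for lateral root initiation, and ANR1 acts on lateral root growth in Arabidopsis, so transport and response genes of auxin were listed too. The list held 15 probe sets, 7 of them at a signal of 100 on at least 1 array. By limma 0 of the 7 were called in high NH4+ (6.52% of all tested were called), where 2 had an unadjusted p under 0.05, and 1 was called lower in low NH4+ (2.44% of all tested), where 3 had one. With 7 members, the counts of calls are near the background. The share of all tested probe sets with an unadjusted p under 0.05 was not counted, so those counts have no background beside them. The medians of the 7 were -0.21 in high NH4+ and -0.35 in low NH4+. The member called was IAA7, an Aux/IAA repressor of auxin response (adjusted p = 0.0940 by limma), with log2 values of 6.21, 6.28 and 8.38 in water and 4.62, 4.33 and 4.25 in low NH4+. Of these 6 arrays only water replicate 3 reached the signal of 100, so no fold is given, and 0 were called with signals under 100 set to 100. The count in low NH4+ was 2 without water replicate 2 or low NH4+ replicate 3, and 0 without any 1 of the other 7 arrays. Over all tested probe sets, the fits that gave 2 called 638 and 1126, and those that gave 0 called 4 to 39. In high NH4+, where the ANR1-like transcript was lowest, IAA7 stood at 6.59, 6.67 and 5.43, within or below the water values.

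The labelled tissue was root. Of 4 root marker probe sets, FER (the regulator of iron uptake), NRAMP1 and the phosphate transporter PT1 were tested, and FRO1 had a highest signal of 22.1. Their summed signal was 1774 to 2339 in water, 1279 to 1303 in low NH4+ and 1290 to 1823 in high NH4+. The planned markers also named NRT2.1 and AMT1, which were not matched by symbol. In high NH4+ the nitrate transporter NRT2.1 rose by 1.38 (adjusted p = 0.0856 by limma) and AMT1 fell by 0.85 (adjusted p = 0.0773). The study reported PT1 as lower in low NH4+ than in water, so the root marker sum does not read tissue makeup alone. Of 5 leaf marker probe sets, 3 were tested (PSBR, CAB4 and psaD), while CAB5 and CAB6A had highest signals of 7.63 and 39.1. The summed leaf marker signal was 1935 to 2606 in water, 826 to 1722 in low NH4+ and 564 to 958 in high NH4+. It was thus lower in all ammonium arrays than in water, as was the ANR1-like signal in all but 1 array. PSBR, a subunit of photosystem II, had a log2 difference of -1.78 in high NH4+ (adjusted p = 0.0431 by limma) and of -0.88 in low NH4+, which did not pass, and it made up most of the summed signal in water. The other 2 were not called: CAB4 differed by -1.29 in both doses, and psaD by -0.73 in high NH4+ and -0.17 in low NH4+. CAB4 lay under the signal of 100 on low NH4+ replicates 2 and 3 and high NH4+ replicate 2. On that high NH4+ array psaD lay under it too. These differences thus rest in part on signals under that limit, except that of psaD in low NH4+. Of the root markers, FER fell by 0.86 in high NH4+ (adjusted p = 0.0931 by limma). It was also called lower in low NH4+ (adjusted p = 0.0152). All low NH4+ arrays lay under the signal of 100 for FER, at log2 values of 5.95 to 6.40, so no fold is given there. The other 2 were not called: NRAMP1 differed by -0.92 in high NH4+ and 0.07 in low NH4+, and PT1 by -0.32 and -0.70. What part the tissue makeup of the excised roots has in the fall of the ANR1-like transcript was not tested.

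The genes with patterns most like that of the ANR1-like gene were ranked by Pearson's r over the log2 values of the 9 arrays, among 591 tested probe sets with a gene name. A name was a symbol or, where there was none or only a locus number, a description from the study's list of changed genes. Without a symbol, a probe set could thus be named only if the study had listed it as changed on these same arrays. ERT 13, the heat shock protein, Glb1, the beta-mannosidase and the PR5-like protein below were named in this way. All the points share the same 3 treatments and the same array medians, so r is a description. Of the 6669 other tested probe sets, 13 had r of 0.9 or more and 6 had r of -0.9 or less, and the median r was 0.05. The highest r of all, 0.96, belonged to a probe set without a gene name (Les.5236.1.S1_at), which was 0.80 after centring each array on its median.

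The 5 named genes most like it, and the 3 most unlike it, were chosen on these same arrays, so their direction follows from the choice and their p-values are not independent evidence. Most like it were a ripening-related mRNA, ERT 13 (r = 0.94, and 0.92 after centring), the phytoene synthase PSY2 (0.93 and 0.93), which makes the first carotenoid precursor, the ACC oxidase ACO4 (0.92 and 0.92), which carries out the last step of ethylene synthesis, APS-AA2 (0.90 and 0.85) and a heat shock protein (0.90 and 0.85). In high NH4+ against water their log2 differences ran from -1.30 for PSY2 to -0.49 for ERT 13, all smaller than that of the ANR1-like gene. ACO4 (-0.97, adjusted p = 0.0490 by limma) and the heat shock protein (-0.91, adjusted p = 0.0448) were called, and the other 3 were not. In low NH4+ the 5 differed from water by -0.64 to -0.33, and none was called. APS-AA2 reached the signal of 100 on only 4 arrays, those of water and low NH4+ replicate 2. It lay under 100 on all high NH4+ arrays, at log2 values of 6.15 to 6.57. The r and the differences of APS-AA2 thus rest in part on signals under that limit.

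The lowest r of all 6669 was that of Glb1, the class 1 non-symbiotic hemoglobin, an oxygen- and nitric oxide-binding protein (r = -0.97, and -0.93 after centring). Its signals were 128, 244 and 1010 in water, 2794, 683 and 671 in low NH4+, and 2737, 3314 and 3238 in high NH4+. The water array with the least ANR1-like transcript, replicate 3, had the most Glb1, and the low NH4+ array with the least, replicate 1, likewise. Glb1 rose in high NH4+ by a log2 difference of 3.29 (adjusted p = 0.0671 by limma), and its difference of 1.78 in low NH4+ did not pass (adjusted p = 0.200). A beta-mannosidase (r = -0.94, and -0.75 after centring) rose by 1.05 in high NH4+ (adjusted p = 0.0431). A PR5-like protein, named after a pathogenesis-related family (r = -0.90, and -0.77 after centring), rose by 1.49 in high NH4+ (adjusted p = 0.0705). The names of these 3 and of the heat shock protein are descriptions from the study's list of changed genes. Elsewhere the study names the probe set of the heat shock protein as a glutathione S-transferase. It names that of the PR5-like protein as an early dehydration-response protein.

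**Figure D4:**
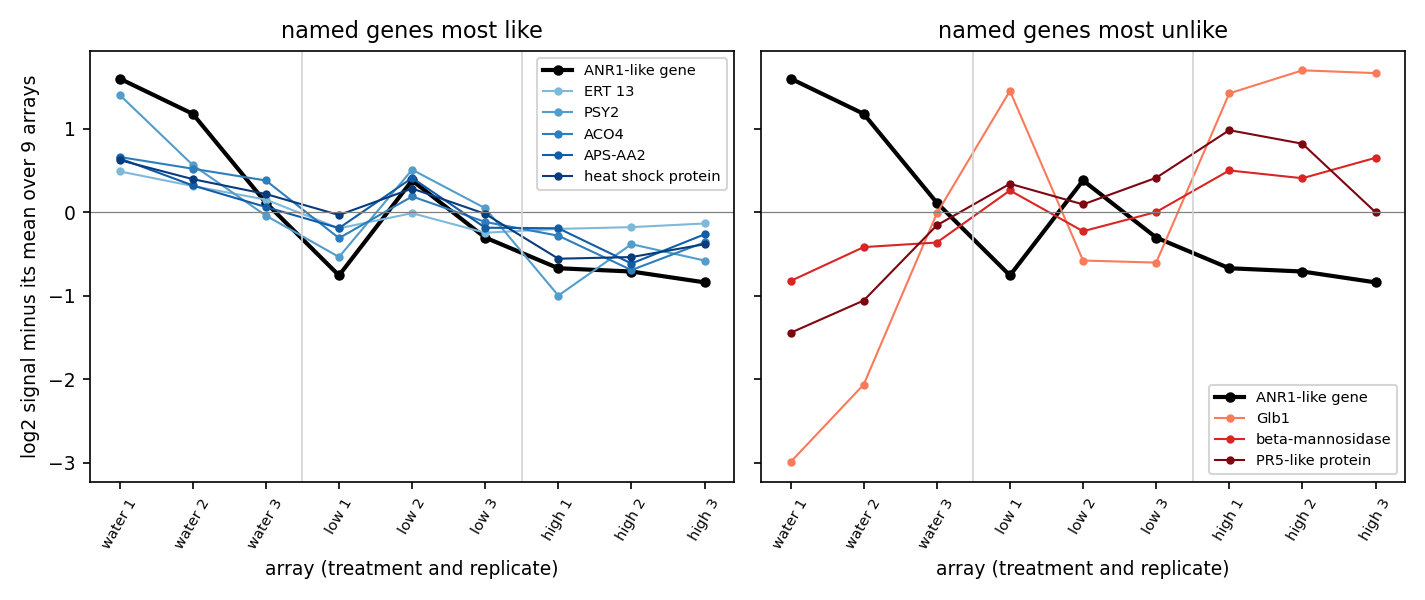
Log2 signal of each gene minus its own mean over the 9 arrays, by array, for the ANR1-like gene (black) with the 5 named genes most like it (left, blue) and the 3 most unlike it (right, red). The lines only join the points of 1 gene, since replicates have no order. The genes on the left stand lower and those on the right higher in high NH4+ than in water, and Glb1 is highest where the ANR1-like gene is lowest within water and within low NH4+.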

How the data were processed

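Values were read from the deposited table of 10209 probe sets on 9 arrays. The authors summarized each array with MAS5 in Affymetrix Expression Console and deposited the natural log of the signal. Their versions were not given in those sources. Dividing these by ln 2 gave log2 signals, and nothing else was done to scale them. The 171 control probe sets were left out, and the 6670 of 10038 tomato probe sets with a signal of at least 100 on 1 array or more were tested. One limma (3.58.1, R 4.3.3) model of the 3 treatments was fitted to all 9 arrays, with Benjamini-Hochberg adjustment over the 6670 probe sets within each comparison and a false discovery rate of 10%, after the filter and threshold of the study's methods, and was tested on simulated data. Values of the single gene were also compared by exact permutation over arrays (Python 3.11.15, numpy 2.4.6). Arrays measure hybridization, not counted molecules, so the number of arrays limits the precision.

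Treatment and replicate of each array came from its labels, and the labels name the replicates as biological. Gene symbols came from the platform annotation (909 probe sets, 885 with a RefSeq gene ID of assembly SLM_r2.1). Other names came from descriptions in the study's list of genes changed on these arrays. The gene and the lists were chosen with earlier results of these data known. Named genes were the gene itself, the MADS-box list, called members of the nitrogen and auxin lists (at most 6 a list), and the 5 most like and 3 most unlike named genes by Pearson's r. Tissue markers, members that were not called, the unnamed probe set and members of the study's nitrogen group were named outside that rule, after their values were seen. Alternatives covered the filter, scaling, floor, model, replicate block and each array left out in turn.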

Additional observations from a re-analysis of the deposited data

How the results depend on the processing

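The fall of the ANR1-like transcript in high NH4+ kept its direction in all 19 alternatives and its call in 12. The call was lost with no filter on low signals (-1.71, adjusted p = 0.123 by limma), with median centring (-1.59, 0.1002), with a one-way model on 1 probe set at a time (-1.71, 0.142) and in 4 of the 9 fits with 1 array left out: water replicate 1 (-1.39, 0.205) and high NH4+ replicates 1 (-1.74, 0.185), 2 (-1.72, 0.227) and 3 (-1.66, 0.125). Over all tested probe sets, 141 of 10038 were called with no filter, 358 of 6670 with median centring and 139 of 6670 with the one-way model, against 435 of 6670. Without water replicate 1 and high NH4+ replicates 1, 2 and 3, calls were 11 of 6638, 6 of 6600, 6 of 6661 and 285 of 6666. The other fits with 1 array left out called 112 to 728. Leaving out 1 array gave log2 differences of -2.13 to -1.39 for the ANR1-like gene. The differences of low NH4+ from water and of high from low NH4+ stayed uncalled and kept their direction in all 19 alternatives each, with ranges of -1.62 to -0.87 and -0.78 to -0.21 when 1 array was left out. The one-way F over the 3 treatments ran from 4.35 to 18.6 with 1 array left out, and its exact permutation p was above 0.05 in 7 of these 9. Without low NH4+ replicate 2 and water replicate 3 it was 58.0 (exact permutation p = 0.0381). Replicate numbers were shared between treatments, but arrays of the same number did not deviate together (r from -0.38 to 0.35 over 9 pairs, against -0.39 to 0.40 over 18 pairs of different number). With the replicate block the high NH4+ difference was -1.71 (adjusted p = 0.0948 by limma), still called.

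Calls over all tested probe sets moved between settings. In high NH4+ the 435 became 141 with no filter, 694 with quantile normalization and 651 with signals under 100 set to 100. They were 139 with the one-way model, 205 with the replicate block and 6 to 728 with 1 array left out. Counts of called list members moved as follows. With no filter, 1 MADS-box probe set in place of 0, TM5 at signals of 6.25 or less, was called in each dose. The 4 nitrogen calls in high NH4+ became 2 with the one-way model and 2 to 4 with 1 array left out. The 2 nitrogen calls in low NH4+ became 1 with the stricter filter of 3 arrays, with signals under 100 set to 100 or with only the 2 groups compared, 0 with the one-way model, 1 to 2 with 1 array left out, and 0 without low NH4+ replicate 2 and water replicate 3. In the nitrogen group of the study, the 14 calls in high NH4+ became 5 with no filter, 3 with the one-way model and 9 with the replicate block, and the 7 in low NH4+ became 3 with quantile normalization, 1 with no filter or only the 2 groups compared, and 0 with the one-way model. Without low NH4+ replicate 2 and water replicate 3 they became 7 and 0. The 0 auxin calls in high NH4+ became 1 with quantile normalization or with signals under 100 set to 100, and 0 to 1 with 1 array left out. The 1 auxin call in low NH4+ became 0 with no filter, the stricter filter, quantile normalization, the floor of 100, the one-way model, only the 2 groups compared, or the replicate block, 0 to 2 with 1 array left out, and 0 without both arrays that stood apart. The cause of these changes was not tested.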

Other observations

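Glb1 had been picked for the lowest r to the ANR1-like gene over these same arrays, which in part fixes the values given here. With each value taken as its deviation from the mean of its treatment, r between them was -0.92 over the 9 arrays. This was not particular to Glb1: 28 of the 6669 other tested probe sets, Glb1 included, had a within-treatment r that low or lower. For 48 it was -0.9 or less, and for 26 it was 0.9 or more. The ANR1-like deviations on water replicates 1, 2 and 3 were 0.64, 0.21 and -0.85, beside -1.30, -0.37 and 1.68 for Glb1. On low NH4+ replicates 1, 2 and 3 they were -0.53, 0.61 and -0.08, beside 1.36, -0.67 and -0.69. The 3 high NH4+ arrays lay within 0.10 of their mean for the ANR1-like gene. Within-treatment r to the ANR1-like gene in the nitrogen list was 0.11 and -0.08 for the 2 probe sets of gts1, -0.47 for AMT1-2, 0.74 for GS2 and 0.75 for gdh1. These values were looked at after the pattern had been seen, and no test was made of them.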
